A study of Mus musculus with 6 samples.

Results

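Collagen chain genes were compared between starry-sky tumor-associated macrophages (SS-TAMs) and germinal center macrophages (GCMs). The members were all genes whose symbol is Col, a type number, a and a chain number, taken from probe sets annotated to exactly 1 gene. They numbered 44 of the 19938 genes tested, measured by 46 probe sets. Col6a5 and Col6a6 had 2 probe sets each, and of these the brighter one, by its mean over the 6 arrays, was used. No collagen symbol occurred in a probe set annotated to several genes, and the rule for members is by name and not by a value measured here.

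The SS-TAM arrays came from tumors of BL2, a cell line of human Burkitt's lymphoma, grown under the skin of BALB/c SCID mice to 1.44 cm2, in which CD68-stained cells were cut out by laser (n = 3). SCID mice lack mature T and B cells. The GCM arrays were made from germinal centers of BALB/c mice that carry a CSF1R EGFP transgene, a reporter of macrophages, and that had received 2 doses of sheep red blood cells (n = 3). All animals were female and 6 to 12 weeks old, 1000 cells were taken from each tissue, and every array came from a separate biological replicate. For the GCM animals the labels give spleen as the tissue but lymph nodes as the source. Host strain, tissue site, immune stimulus and the marker used to find the cells all differ along with the macrophage population. Their parts in any difference therefore cannot be told apart.

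A collagen is built from 3 alpha chains wound into a triple helix, and each gene here encodes 1 kind of chain. Fibrillar collagens form the load-bearing fibers of connective tissue, type IV chains form the mesh of basement membranes, and type VI chains form beaded microfilaments next to cells. Fibroblasts and other stromal cells are the main producers in most tissues, while macrophages are better known for taking up and digesting collagen.

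RefSeq promoter sequences of the mouse genome build GRCm38.p6 matched 35 of the 44 members. The 250 bases before the transcription start are given 5′ to 3′ for Col1a2, Col3a1 and Col6a3, which had at least 2-fold higher mean levels in SS-TAMs, and for Col8a1 and Col11a2, which had the 2 smallest adjusted p-values of all members. Capitals mark CCAAT, the GC box GGGCGG (or CCGCCC where it lies on the opposite strand) and TATAAA, each searched on both strands. No match overlaps another in these 5 windows.
Col1a2, chr6:4505368-4505617, plus strand: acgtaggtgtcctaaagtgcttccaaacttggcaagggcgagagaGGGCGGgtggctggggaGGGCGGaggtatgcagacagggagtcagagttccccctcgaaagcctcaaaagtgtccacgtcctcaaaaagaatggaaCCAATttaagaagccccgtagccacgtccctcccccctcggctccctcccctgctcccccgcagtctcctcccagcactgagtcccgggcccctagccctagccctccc
Col3a1, chr1:45311288-45311537, plus strand: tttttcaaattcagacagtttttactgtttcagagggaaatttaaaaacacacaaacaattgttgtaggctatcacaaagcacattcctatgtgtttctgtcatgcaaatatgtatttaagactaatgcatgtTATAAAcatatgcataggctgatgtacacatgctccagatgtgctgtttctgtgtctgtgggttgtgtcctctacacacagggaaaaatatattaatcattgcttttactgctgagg
Col6a3, chr1:90843972-90844221, minus strand: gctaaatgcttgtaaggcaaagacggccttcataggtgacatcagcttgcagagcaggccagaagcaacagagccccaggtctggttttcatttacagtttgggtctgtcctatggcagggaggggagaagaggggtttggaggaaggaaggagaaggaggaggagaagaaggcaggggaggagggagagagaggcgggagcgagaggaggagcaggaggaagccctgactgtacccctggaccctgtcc
Col8a1, chr16:57754738-57754987, minus strand: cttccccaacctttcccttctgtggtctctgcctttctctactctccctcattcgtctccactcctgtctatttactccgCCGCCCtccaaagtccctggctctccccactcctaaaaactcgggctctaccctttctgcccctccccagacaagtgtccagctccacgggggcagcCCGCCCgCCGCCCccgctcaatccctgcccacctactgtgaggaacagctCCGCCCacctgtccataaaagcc
Col11a2, chr17:34038888-34039137, plus strand: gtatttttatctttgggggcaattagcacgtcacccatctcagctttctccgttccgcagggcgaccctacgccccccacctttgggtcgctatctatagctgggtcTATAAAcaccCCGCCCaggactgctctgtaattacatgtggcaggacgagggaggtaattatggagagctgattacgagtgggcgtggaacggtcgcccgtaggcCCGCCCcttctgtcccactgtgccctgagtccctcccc

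The Col6a3 window holds none of the 3 motifs, Col3a1 has only TATAAA, and Col1a2 is the only one of the 5 with CCAAT. Col8a1 has 4 GC boxes and Col11a2 has 2, the farther of which follows a TATAAA. Over all 35 members with a promoter, 21 hold GGGCGG, 13 hold CCAAT and 5 hold TATAAA. Among 32851 promoter windows of the same length, the shares are 32.7% for GGGCGG, 33.8% for CCAAT and 12.4% for TATAAA. These shares are per window, whereas Col6a2, Col9a1 and Col18a1 have 2 windows each and were counted if either held the motif. Of the 7 members that were higher in SS-TAMs by the test below, 6 have a promoter in the table. All 6 hold GGGCGG, 3 hold CCAAT (Col1a2, Col5a3 and Col18a1) and Col11a2 alone holds TATAAA. The matches of Col18a1 lie in only 1 of its 2 windows. A match describes these letters only and does not locate a binding site.

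Of the 44 collagen chain genes, 7 were higher in SS-TAMs than in GCMs and none was lower on the scale of the deposited values, although relative to the core macrophage markers all 44 lay below 0, as did 99.2% of all genes. The 7 were Col1a2, Col8a1, Col11a2, Col18a1, Col26a1, Col5a3 and Col5a1, with a limma p-value, adjusted by Benjamini-Hochberg across the whole gene table, under 0.05. They are 15.9% of the members, beside 5.16% higher and 4.74% lower among all genes tested (1028 and 946 genes, or 722 and 1195 with each array centered on its median). The median log2 fold change, SS-TAM minus GCM, was 0.28 over the members and 0.041 over all genes, and single members ranged from -0.23 to 1.37. Above 0 were 40 members, beside 60.0% of all genes. In 24 members (54.5%) every SS-TAM array exceeded every GCM array, beside 18.5% of all genes, and in none did the groups separate the other way, beside 11.5%. At an unadjusted p under 0.05, 22 members were higher, beside 15.2% of all genes, and none was lower, beside 10.4%. These are bulk samples, in which more collagen-producing cells and more collagen RNA per cell cannot be told apart.

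**Figure D1:**
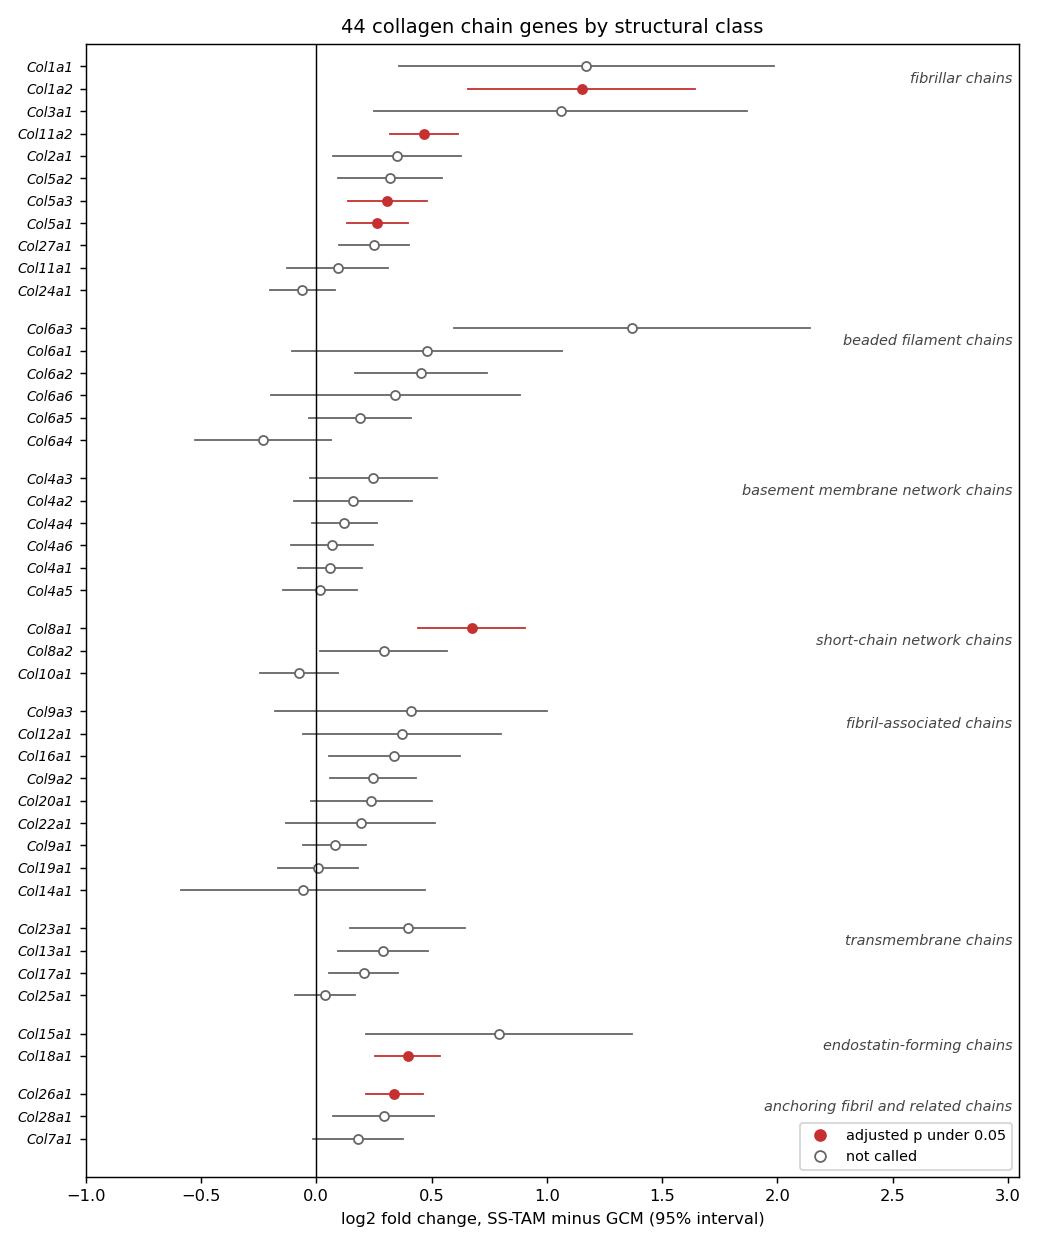
Log2 fold change (SS-TAM minus GCM, deposited scale) of all 44 collagen chain genes grouped by structural class, with 95% confidence intervals from limma and called genes in red. Most points lie to the right of 0, the called ones include 4 fibrillar chains, and the widest intervals belong to the largest differences; relative to the core macrophage markers every point would lie below 0, as would 99.2% of all genes.

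The members' intensities ran from 4.4 to 62.4 in SS-TAMs and from 4.5 to 20.2 in GCMs. The median over all genes was 6.6 to 6.7 in SS-TAMs and 6.3 to 6.4 in GCMs, and intensities of different probe sets are not comparable with each other. No detection calls were used, so a low value is a level and not an absence.

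The scale decides the direction. When each array was shifted to an equal mean over 15 core macrophage markers (without Cd68 and Csf1r), the median of all genes moved to -1.40 and that of the collagen chains to -1.17. Relative to the median of all genes the collagen chains stood 0.24 higher under either scale. This equality is fixed by construction, because the shift moves every gene on an array by the same amount. On the shifted scale 40 of the 44 members were called lower, beside 98.4% of all genes, and the 4 that were not were Col1a1, Col1a2, Col3a1 and Col6a3. The directions below are those of the deposited scale.

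Fibrillar chains held 4 of the 7 called genes, which is 36.4% of the class, beside 5.16% of all genes. Of 11 fibrillar chains 9 had no overlap between the groups (81.8%, beside 18.5% of all genes with SS-TAMs higher). The median log2 fold change was 0.32, beside 0.041 over all genes. Col1a2, which encodes the alpha 2 chain of type I collagen, was at 36.7, 23.9 and 21.4 in SS-TAM replicates 1, 2 and 3 and at 12.0, 11.9 and 12.0 in GCMs. The SS-TAM arrays lay far apart from the GCM arrays, which hardly differed among themselves. The mean was 27.3 ± 8.21 against 12.0 ± 0.058 (SD, n = 3), a 2.22-fold difference with a log2 fold change of 1.15 (SE 0.20, limma adjusted p = 0.023). Among the called members Col1a2 alone passed 2-fold, 1 of 44, beside 1.4% of all genes that were called and at least 2-fold higher.

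Col1a1 encodes the partner chain in the type I trimer, and it did not pass the test. Its intensities were 62.4, 27.2 and 29.2 in SS-TAMs and 14, 17.2 and 18 in GCMs. The groups did not overlap, but SS-TAM replicate 1 was more than 2 times each of the other SS-TAM arrays. The difference was 2.25-fold (39.6 ± 19.8 against 16.4 ± 2.12, SD, n = 3), a log2 fold change of 1.17 (SE 0.33, limma adjusted p = 0.088). Col3a1, the chain of type III collagen that is laid down with type I in soft tissue, did not pass either. It was at 33.9, 18.9 and 13.3 in SS-TAMs and at 9.2, 10.2 and 10.0 in GCMs. Its log2 fold change was 1.06 (SE 0.33, limma adjusted p = 0.11), with replicate 1 again the highest SS-TAM array.

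Type V chains, which co-assemble into type I fibrils and limit their diameter, differed by less but more evenly. Col5a1 rose from 6.8, 6.8 and 6.7 in GCMs to 8.4, 7.8 and 8.2 in SS-TAMs, a log2 fold change of 0.26 (SE 0.053, limma adjusted p = 0.035). Col5a3 stood at 9.8, 8.4 and 9.1 against 7.4, 7.3 and 7.3, and at 0.31 (SE 0.070, limma adjusted p = 0.0493) it was the called member nearest the threshold. The third chain, Col5a2, was at 9.5, 7.6 and 8.1 in SS-TAMs and at 6.7 on every GCM array, a log2 fold change of 0.32 that did not pass (limma adjusted p = 0.090). All 3 chains of type V had non-overlapping groups, beside 18.5% of all genes with SS-TAMs higher. However, the calls of Col5a1 and Col5a3 both ended with median centering (limma adjusted p = 0.10 and 0.11) and quantile normalization (0.11 and 0.10). They also ended with dim genes left out (limma adjusted p = 0.060 and 0.057) and a trended robust variance model (0.054 and 0.064).

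Col11a2, a minor fibrillar chain best known from cartilage, had the smallest adjusted p of all members. It was at 11.0, 10.9 and 10.2 in SS-TAMs and at 7.4, 7.9 and 7.9 in GCMs, and the spread within either group was small beside the gap. The mean rose 1.38-fold, from 7.73 ± 0.289 to 10.7 ± 0.436 (SD, n = 3), a log2 fold change of 0.47 (SE 0.060, limma adjusted p = 0.0091). Its partner chain Col11a1 was at 5.8, 5.5 and 6.8 against 5.6, 5.7 and 5.6. Those groups overlapped, and the log2 fold change of 0.093 had a 95% interval of -0.12 to 0.31. Col2a1, the main cartilage chain, and Col27a1 had no overlap between the groups but did not pass, with log2 fold changes of 0.35 and 0.25 (limma adjusted p = 0.12 and 0.062).

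**Figure D2:**
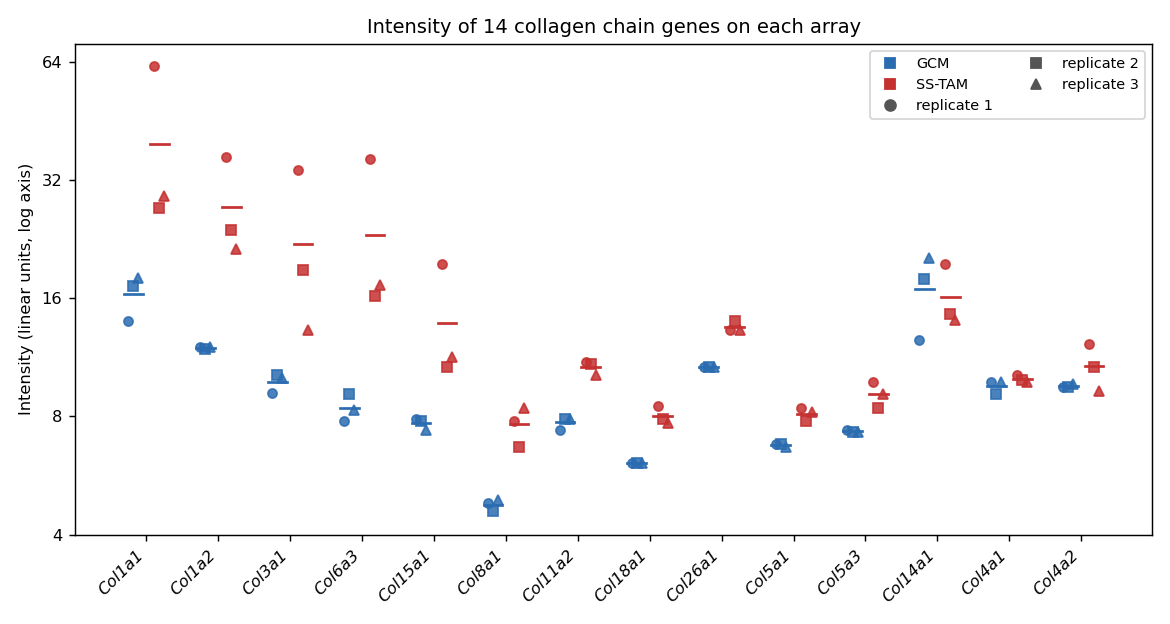
Deposited intensity (log axis) of 14 collagen chain genes on each SS-TAM and GCM array, where a point is 1 array and the bar is the group mean. Col1a1, Col1a2, Col3a1 and Col6a3 have 1 SS-TAM array set apart above the others, Col11a2 and Col26a1 form tight groups, and Col14a1 overlaps; intensities of different genes come from different probes and are not to be compared.

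None of the 6 beaded filament chains passed, although the class held the member with the largest difference. Col6a3, the longest of the type VI chains, was at 36.2, 16.2 and 17.3 in SS-TAMs and at 7.8, 9.1 and 8.3 in GCMs. Every SS-TAM array was above every GCM array, and replicate 1 was the highest. The ratio was 2.58 (23.2 ± 11.2 against 8.40 ± 0.656, SD, n = 3), a log2 fold change of 1.37 with a 95% interval of 0.60 to 2.14. Its limma adjusted p of 0.050 was just above the threshold, so Col6a3 and Col5a3 lie on either side of it at nearly the same value. Col6a2 was at 22.8, 17 and 18 against 14.1, 14 and 13.7, a log2 fold change of 0.46 (limma adjusted p = 0.068). Col6a1 overlapped between the groups, at 18.2, 9.5 and 12.4 against 8.6, 8.9 and 10.3 (log2 fold change 0.48, limma adjusted p = 0.26). Col6a4 had the lowest value of all members, a log2 fold change of -0.23 with overlapping groups (limma adjusted p = 0.28).

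Among network-forming chains the short-chain collagen Col8a1 passed and the basement membrane chains did not. Col8a1, found in the matrix beneath endothelium, rose from 4.8, 4.6 and 4.9 in GCMs to 7.8, 6.7 and 8.4 in SS-TAMs. Its log2 fold change was 0.67 (SE 0.094, limma adjusted p = 0.012). The other type VIII chain, Col8a2, was at 6.4, 8.2 and 8.2 against 6.2, 6.4 and 5.9. The groups met at 6.4, and the log2 fold change of 0.29 did not pass (limma adjusted p = 0.17).

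The 6 type IV chains had a median log2 fold change of 0.094 and ranged from 0.015 to 0.25. Col4a1 and Col4a2, which make the most widespread basement membrane trimer, have start sites 21 bases apart on opposite strands in RefSeq. Col4a1 was at 10.2, 9.9 and 9.8 in SS-TAMs and at 9.8, 9.1 and 9.8 in GCMs. Col4a2 was at 12.2, 10.7 and 9.3 against 9.5, 9.5 and 9.7. Both overlapped, with 95% intervals of the log2 fold change of -0.08 to 0.20 and -0.10 to 0.41. On the deposited scale these intervals exclude a 2-fold difference in intensity for either gene but not a smaller one. They do not carry over to the scale of the core macrophage markers. There both genes were called lower, as were 98.4% of all genes. Col4a3 and Col4a4, which occur in specialized basement membranes, had no overlap between the groups and log2 fold changes of 0.25 and 0.12 (limma adjusted p = 0.23 and 0.25).

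Both endostatin-forming chains, basement membrane collagens from which anti-angiogenic fragments are released, had non-overlapping groups, beside 18.5% of all genes with SS-TAMs higher. Col18a1 rose from 6.1 on every GCM array to 8.5, 7.9 and 7.7, a log2 fold change of 0.40 (SE 0.058, limma adjusted p = 0.014). Col15a1 was at 19.6, 10.7 and 11.3 in SS-TAMs and at 7.9, 7.8 and 7.4 in GCMs. Its log2 fold change of 0.79 was larger than that of Col18a1, but replicate 1 stood well above the other SS-TAM arrays and the gene did not pass (limma adjusted p = 0.0998).

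Type XXVI, VII and XXVIII chains all separated the groups, beside 18.5% of all genes with SS-TAMs higher. Col26a1 rose from 10.7 on every GCM array to 13.3, 14 and 13.3, a log2 fold change of 0.34 (SE 0.051, limma adjusted p = 0.015). Its call ended with quantile normalization (limma adjusted p = 0.062) and with a trended robust variance model (0.060). Col7a1, the chain of the anchoring fibrils under the epidermis, was at 10.9, 12.6 and 13 in SS-TAMs and likewise at 10.7 on every GCM array. Its log2 fold change was 0.18 (limma adjusted p = 0.22), and that of Col28a1 was 0.29 (limma adjusted p = 0.11). Identical GCM values occurred in 6 members (Col4a4, Col5a2, Col7a1, Col18a1, Col22a1 and Col26a1), beside 9.34% of all genes, and 1.48% of all genes had identical values on the SS-TAM arrays. With values rounded to 1 decimal, the GCM spread of these genes is not measured, and 2 of them, Col18a1 and Col26a1, were called.

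Fibril-associated and transmembrane chains had no called member. Of the 9 fibril-associated chains only Col9a2 and Col16a1 separated the groups (22.2%, near the 18.5% of all genes with SS-TAMs higher). Their log2 fold changes were 0.25 and 0.34 (limma adjusted p = 0.11 and 0.14). Col14a1, which coats type I fibrils, was at 19.5, 14.6 and 14.1 in SS-TAMs and at 12.5, 17.9 and 20.2 in GCMs. The groups overlapped throughout, with a log2 fold change of -0.057 and a 95% interval of -0.59 to 0.47. Of the 4 transmembrane chains, Col13a1, Col17a1 and Col23a1 separated the groups without passing (75.0%, beside 18.5% of all genes with SS-TAMs higher). Col23a1 came nearest, at 12.3, 12.6 and 15.1 against 10.5, 9.3 and 10.5 (log2 fold change 0.40, limma adjusted p = 0.068).

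SS-TAM replicate 1 was at least 1.5 times both other SS-TAM arrays for Col1a1, Col1a2, Col3a1, Col6a3 and Col15a1, 5 of 44 members (11.4%), beside 2.25% of all genes. Replicate 2 was so for no member, and replicate 3 for Col9a3. Over all 44 members the median log2 difference from the GCM mean was 0.21, 0.21 and 0.31 in SS-TAM replicates 1, 2 and 3. The median was thus not highest in replicate 1, but the brighter members were. All 8 members that reached 16 on any array had their highest SS-TAM value in replicate 1, with sums of 249.3, 138.0 and 137.0. Of the 36 members under 16, 9 were highest in replicate 1, 8 in replicate 2 and 21 in replicate 3, with ties counted in each. Counted likewise over all 19938 genes, the numbers were 7055, 7357 and 7596. The cut used the highest array, so a high replicate 1 helped a member to pass it.

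**Figure D3:**
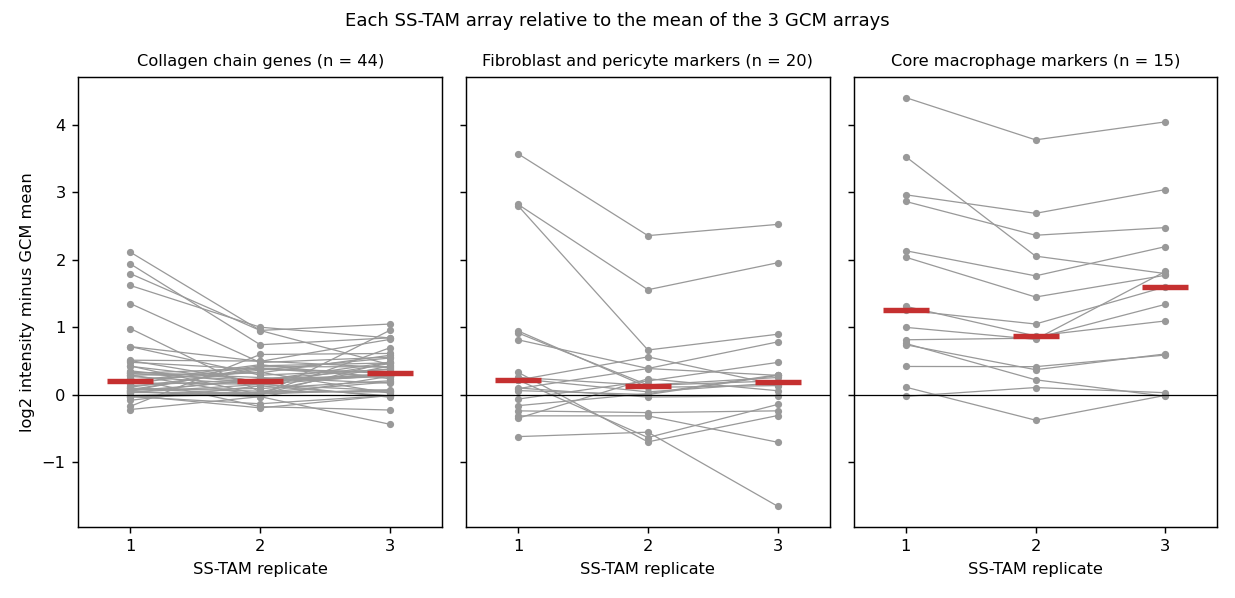
Log2 intensity of each SS-TAM array minus the GCM mean (deposited scale) for 44 collagen chain genes, 20 fibroblast and pericyte markers and 15 core macrophage markers, where a grey line is 1 gene, a red bar the median and the replicate order has no meaning. A few collagen and fibroblast lines peak at replicate 1, while the collagen medians are 0.21, 0.21 and 0.31; scaled to the core macrophage markers the log2 fold changes of all 44 would lie below 0, as would 99.2% of all genes.

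The calls depended on single arrays. Without SS-TAM replicate 1, 14 members were higher, beside 5.81% of all genes: Col1a1, Col6a2, Col6a3, Col6a6, Col7a1, Col8a2, Col15a1 and Col16a1 were gained and Col5a3 was lost. The log2 fold changes then fell to 0.79 for Col1a1, 0.92 for Col1a2, 0.70 for Col3a1, 1.00 for Col6a3 and 0.51 for Col15a1, all of them still above 0. Without any 1 of the 3 GCM arrays a single member, Col11a2, was called in each case, while 1.75%, 1.36% and 1.52% of all genes were higher. Without SS-TAM replicate 2 Col1a2 was lost, and without SS-TAM replicate 3 Col5a1 and Col5a3 were lost. Col11a2 was called in all 6 of these fits (limma adjusted p from 0.018 to 0.047).

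Markers of collagen-producing cells were examined beside these results. Of 20 fibroblast and pericyte markers, 3 were higher in SS-TAMs (Mfap5, Pdgfrb and Postn) and none was lower. The 3 are 15.0%, beside 5.16% higher and 4.74% lower among all genes. The list's median log2 fold change was 0.17, with 14 markers above 0 and 6 below. The groups did not overlap in 7 markers with SS-TAMs higher. They also did not overlap in Des and Rgs5, with SS-TAMs lower (log2 fold changes -0.25 and -0.95, not called). Postn, a matrix protein of activated fibroblasts, was at 210.1, 90.6 and 101.7 in SS-TAMs and at 44.3, 11.7 and 10.7 in GCMs (log2 fold change 2.82, limma adjusted p = 0.047). The summed intensity of the list was 465.1 to 793.6 in SS-TAMs and 445.2 to 528.0 in GCMs, and that of the collagen chains 445.5 to 550.4 and 352.7 to 367.7. SS-TAM replicate 1 had the highest sum for both lists. Thy1 was the largest entry in the marker sum of every GCM array. It was at 144.2, 119.4 and 202.9 in GCMs and at 190.8, 93.3 and 122.3 in SS-TAMs. The T cell markers below summed higher in GCMs, and the part of T cell RNA in the Thy1 level was not tested. SS-TAM replicate 1 was at least 1.5 times both other SS-TAM arrays for 6 of the 20 (Pdgfra, Thy1, Lum, Mfap5, Pi16 and Postn). The same held for 2.25% of all genes. Among 17 core macrophage markers, with Cd68 and Csf1r included, it held for 1 (Fcgr1). The part of fibroblast RNA in the collagen levels was not tested. None of 12 endothelial or 5 skeletal muscle markers passed in either direction, while among 9 keratinocyte and adipocyte markers Fabp4 and Cidec were higher (22.2%, beside 5.16% of all genes). The other markers of that list did not pass. Adipoq and Lep had log2 fold changes of 0.31 and 0.051 (limma adjusted p = 0.73 and 0.76), and Plin1 was at 9.8 on every array.

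The labels were checked against defining markers. Of 17 core macrophage markers 13 were higher in SS-TAMs (76.5%, beside 5.16% of all genes), summing to 3793.2 to 4704.7 against 1939.2 to 2242.8. Cd68 and Csf1r had served to choose the cells. Adgre1, the gene of F4/80, was at 106.4, 68.9 and 82.9 in SS-TAMs but at 5.1, 4.9 and 5.1 in GCMs. T cell markers summed to 1122.3 to 1502.3 in GCMs and 133.0 to 165.7 in SS-TAMs. In SS-TAMs 8 of 11 T cell markers and 2 of 9 B cell markers were lower, beside 4.74% of all genes. The SCID hosts lack mature T and B cells, so these lymphocyte markers do not test the SS-TAM label. Among 10 follicular dendritic and splenic stromal markers, Clu, Mfge8 and Ccl19 were lower in SS-TAMs and Vcam1 was higher, beside 4.74% and 5.16% of all genes. The part of this lymphoid and stromal RNA in the lower collagen levels of GCMs was not tested.

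Of 59 genes that act on collagen, 16 were higher in SS-TAMs (27.1%, beside 5.16% of all genes) and 2 were lower, but relative to the core macrophage markers 3 were higher (Sparc, Ctsl and Ctsk) and 46 lower, beside 0.557% and 98.4% of all genes. Synthesis enzymes and chaperones held the most, 8 of 20 measured: the collagen-binding Sparc, Plod1, P3h1, P4ha1, Crtap, P3h3, P4ha2 and P4hb. P4ha1 and P4hb form prolyl 4-hydroxylase, which makes the hydroxyproline that stabilizes the triple helix. P4ha1 was at 30.9, 37.1 and 52.8 in SS-TAMs and at 16.9, 14.4 and 13.2 in GCMs (log2 fold change 1.41, limma adjusted p = 0.015). Plod1, a lysyl hydroxylase that prepares chains for crosslinking, was at 35.8, 21.3 and 24.7 against 9.3, 10.3 and 9.9 (log2 fold change 1.44, limma adjusted p = 0.010). In both genes the groups were well apart, and P4ha1 was not highest in SS-TAM replicate 1. Crtap and P3h1, whose products form the prolyl 3-hydroxylation complex with cyclophilin B, had log2 fold changes of 1.66 and 0.41. Ppib, the gene of cyclophilin B, was at -0.30 (limma adjusted p = 0.35). The collagen-specific chaperone gene Serpinh1 was at 21.7, 16.8 and 20.4 against 17.2, 16.8 and 16.8 (log2 fold change 0.21, limma adjusted p = 0.27).

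Of 12 measured genes of procollagen processing and crosslinking, Tgm2 and Pcolce2 were higher (16.7%, beside 5.16% of all genes). Their log2 fold changes were 0.53 and 0.36 (limma adjusted p = 0.018 and 0.025). Lysyl oxidases crosslink collagen, and Lox and Loxl1 had log2 fold changes of 0.93 and 0.94 without passing (limma adjusted p = 0.11 and 0.077). Pcolce, an enhancer of procollagen cleavage, was at 67.7, 19.2 and 30.6 against 16.3, 13.9 and 11.7, again with the highest value in SS-TAM replicate 1 (limma adjusted p = 0.14). The 7 small leucine-rich proteoglycans, which bind fibrils, moved both ways, 1 higher and 2 lower, beside 5.16% and 4.74% of all genes. Aspn was higher (log2 fold change 1.30), while Fmod and Prelp fell by 0.69 and 0.94 on the log2 scale (limma adjusted p = 0.025, 0.016 and 0.027). Fmod was at 6.3, 7.5 and 6.8 in SS-TAMs and at 12.4, 10.1 and 10.7 in GCMs, so these stromal genes were not uniformly higher in SS-TAMs.

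Collagen is digested by secreted and lysosomal proteases after or during uptake. Of 11 collagen-degrading proteases 4 were higher (36.4%, beside 5.16% of all genes), namely Mmp2, Ctsl, Mmp13 and Ctsk. The list's median log2 fold change was 0.70, beside 0.041 over all genes. Ctsk, the lysosomal collagenase known best from osteoclasts, was at 45.9, 11.5 and 32.1 in SS-TAMs and at 4.7, 5.2 and 5.0 in GCMs (log2 fold change 2.37, limma adjusted p = 0.038). Its SS-TAM arrays spread widely, but all lay above the GCM arrays. Of 9 measured collagen receptors Mrc2 alone passed (11.1%, beside 5.16% of all genes that were higher). It encodes an endocytic receptor for collagen and was at 8.9, 8.2 and 6.8 against 5.7, 5.4 and 5.3 (log2 fold change 0.54, limma adjusted p = 0.035). Without GCM replicates 1, 2 and 3 in turn, 5, 3 and 3 of the 59 genes were higher. Beside these, 1.75%, 1.36% and 1.52% of all genes were higher. Sparc, Ctsl and Mmp2 were higher in each of these fits.

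**Figure D4:**
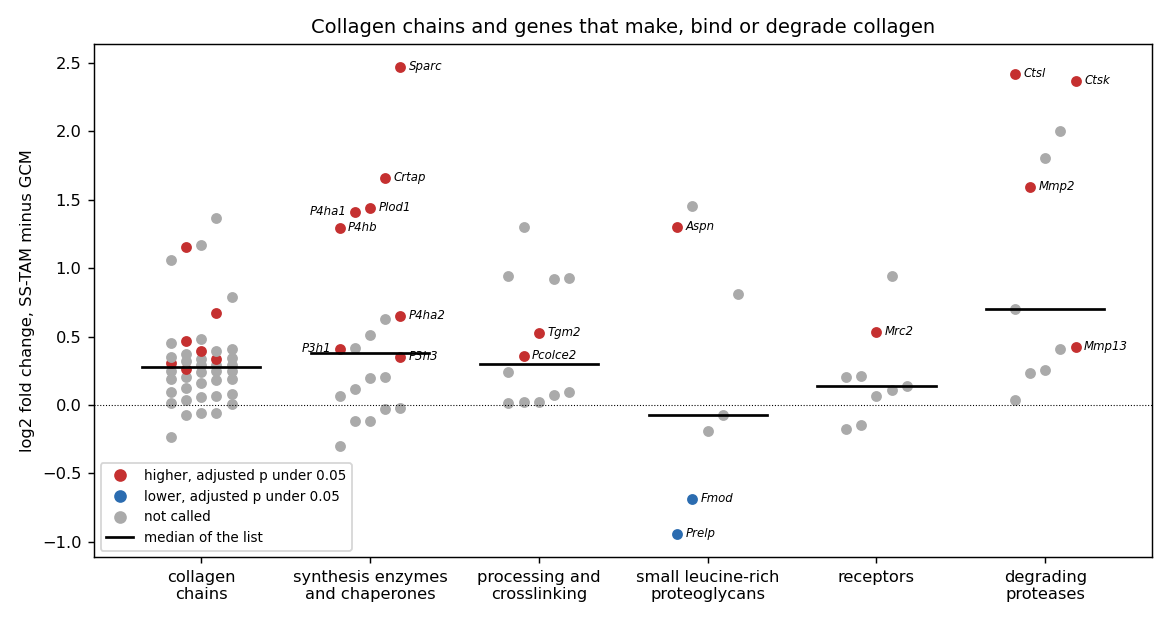
Log2 fold change (SS-TAM minus GCM, deposited scale) of the collagen chain genes and of 5 lists of genes that act on collagen, where a point is 1 gene, red is higher, blue lower, grey not called, and the black line is the median. Medians are 0.28 for the chains, 0.38 for synthesis enzymes and 0.70 for proteases; relative to the core macrophage markers 3 of the 59 listed genes are higher and 46 lower, beside 0.557% and 98.4% of all genes.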

How the data were processed

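Macrophages were captured by laser from 6 mice, and amplified RNA was hybridized to 1 array per sample (3 SS-TAM, 3 GCM). The values deposited by the authors are linear intensities with 1 decimal, between 2.4 and 2543.6 over 28944 probe sets. RMA and limma are named in their processing notes, without versions or settings.

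Probe sets were named from the platform annotation. Those naming several genes (1621) or unnamed here (5534) were left out. The probe set with the highest mean log2 value represented each of 999 genes with several. Log2 intensities were fitted in R 4.3.3 with limma 3.58.1 (lmFit, then eBayes, two-sided tests without covariates). P-values were adjusted by the Benjamini-Hochberg method across 19938 genes, and genes under 0.05 were called. Means ± SD are of linear intensities, and folds are ratios of geometric means. The procedure was tested on simulated data. P-values measure the spread between 3 arrays per group, and that number limits the precision.

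The members and lists were chosen with earlier results of these data known. Members were named if called, if their groups did not overlap, if they shared a type with a called member, if they were among the 6 brightest, or if they had the 3 smallest adjusted p-values that missed the threshold. Up to 4 called genes per list were named, by adjusted p. Col6a4, Col4a1, Col4a2, Col6a1, Col9a3, Col12a1, Col22a1, Col6a5 and Col6a6 and further list genes were named after their values were seen. Some list genes were not analysed here, and counts are given over those measured. Alternatives tried were other scalings, a filter on dim genes, averaged probe sets, array weights, another variance model, a pseudocount of 8, the replicate number as a block, other criteria and each array left out.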

Additional observations from a re-analysis of the deposited data

How the results depend on the processing

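Of 44 collagen chain genes, 7 were higher and none lower, and the count was between 5 and 9, but not of the same genes throughout, with median centering, quantile normalization, dim genes left out (35 members tested), probe sets averaged, a trended robust variance model, array weights and a pseudocount of 8. Under these settings the share of all genes that were higher ran from 3.62% (median centering) to 9.23% (dim genes left out). Median centering lost Col5a1 and Col5a3. Quantile normalization lost Col5a1, Col5a3 and Col26a1 and gained Col6a2 and Col6a3. The filter on dim genes removed Col8a1, lost Col5a1 and Col5a3 and gained Col1a1, Col6a2 and Col6a3, so that 4 of its 7 calls were shared. The robust model lost Col5a1, Col5a3 and Col26a1 and gained Col6a3, averaging gained Col6a3, array weights gained Col6a2 and Col6a3, and the pseudocount lost Col5a3. The count was 3 with the replicate block, 1 with a 2-fold criterion added and 22 at an unadjusted p. Beside these, 3.06%, 1.4% and 15.2% of all genes were higher. With core macrophage markers used to scale the arrays it was 0, with 40 lower, beside 0.557% and 98.4% of all genes. Leaving out 1 array gave 1 to 14 higher and 0 to 0 lower, beside 1.36% to 5.81% and 2.0% to 3.99% of all genes. Of the genes acting on collagen, 16 were higher and 2 lower. These became 9 and 1 with the replicate block, 9 and 0 at 2-fold, 26 higher at an unadjusted p, 3 and 46 with core macrophage scaling, and 3 to 18 and 0 to 2 with 1 array left out. The shares of all genes just given apply here too, with 3.55% lower under the block. The collagen median of 0.28 moved to 0.21 with median centering, 0.21 with quantile normalization, 0.13 with the pseudocount, -1.17 with core macrophage scaling, and 0.23 to 0.28 with 1 array left out. By construction a pseudocount shrinks the folds of dim genes.

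Core macrophage scaling, which moved all genes by construction, turned the log2 fold change negative in 26 of the 27 members that the rule names, to -0.27 for Col1a1, -0.29 for Col1a2, -1.09 for Col2a1, -0.38 for Col3a1, -1.20 for Col4a3, -1.32 for Col4a4, -1.18 for Col5a1, -1.12 for Col5a2, -1.14 for Col5a3, -0.99 for Col6a2, -0.075 for Col6a3, -1.26 for Col7a1, -0.77 for Col8a1, -1.15 for Col8a2, -1.20 for Col9a2, -1.35 for Col11a1, -0.98 for Col11a2, -1.15 for Col13a1, -0.65 for Col15a1, -1.11 for Col16a1, -1.24 for Col17a1, -1.05 for Col18a1, -1.05 for Col23a1, -1.11 for Col26a1, -1.19 for Col27a1 and -1.15 for Col28a1. Col14a1 turned positive without SS-TAM replicate 2 (0.0042), SS-TAM replicate 3 (0.029), GCM replicate 2 (0.0002) and GCM replicate 3 (0.087), in a range of -0.26 to 0.087.

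Same-numbered arrays of the 2 groups correlated at 0.090, 0.087 and 0.019 in their deviations, so the numbers were not taken to pair the samples, although each array correlated best with its own number, a hint from the data and not from the design. Under the block, Col5a1, Col5a3, Col18a1 and Col26a1 missed the threshold. The values are limited by 3 arrays per group, by rounding and by the lack of detection calls.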

Other observations

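Collagen-like triple helices also occur in proteins that are not collagens, and 32 genes of such proteins were measured, a list chosen after values were seen. Of these, 7 were higher in SS-TAMs and none was lower (21.9%, beside 5.16% of all genes), with a median log2 fold change of 0.11. They were the C1q chain genes C1qa, C1qb and C1qc, the scavenger receptor gene Msr1, the ficolin gene Fcna, C1ql2 and Emilin2. Msr1 was at 135.8, 75.6 and 126.2 in SS-TAMs and at 8.8, 6.0 and 5.1 in GCMs (log2 fold change 4.08, limma adjusted p = 0.0016). Fcna was at 47.9, 65.9 and 56.0 against 12.9, 14.9 and 19.2 (log2 fold change 1.86, limma adjusted p = 0.0040). In both genes every SS-TAM array lay far above every GCM array, and each differed by more on the log2 scale than any collagen chain gene did. C1qa, C1qb and C1qc, also among the core macrophage markers, had log2 fold changes of 1.75, 2.57 and 2.03. Colec12, a scavenger receptor with a collagen-like stalk, was at 57.4, 27.8 and 45 against 19.3, 19.2 and 20.8 and did not pass (limma adjusted p = 0.058).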
